A study of Mus musculus with 9 samples.

Results

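SPR and SPF cells are the single-positive end points of a pair of TGFβ-driven cultures of mouse CD4+ T cells. SPR cells showed only the GFP reporter of the Th17 lineage and were sorted from the Th17 culture, and SPF cells showed only the Foxp3 reporter and were sorted from the Treg culture. The comparison used 6 of the 9 libraries of the series, 3 of SPR and 3 of SPF, picked by their labels and compared without pairing. The remaining 3 libraries, of double-positive cells from the Th17 culture, entered 1 alternative fit only.

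All cells started as naive CD4+ T cells from spleens of male mice aged 6 to 10 weeks. These mice were the F1 offspring of a transgenic line whose GFP reporter marks the Th17 lineage and a Foxp3-IRES-mRFP knock-in line, so that both groups carried both reporters. The study describes these males as heterozygous for both, although Foxp3 lies on chromosome X. Beads with antibodies to CD3 and CD28 activated the cells for 72 hours (3 days). The medium of SPR cells held 5 ng/ml TGFβ with 20 ng/ml IL6, and that of SPF cells held 10 ng/ml TGFβ with 5 ng/ml IL2. Sorted population, added cytokine and TGFβ dose differed together, so their parts in a difference cannot be told apart. The labels number the libraries as biological replicates and the study describes its RNA-seq repeats as independent. Neither states whether each repeat had its own mouse, and a p-value measures the spread between these libraries.

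Th17 cells defend epithelial surfaces against bacteria and fungi through IL-17 cytokines. Treg cells restrain other lymphocytes and are defined by the transcription factor Foxp3. In naive cells that meet TGFβ, IL6 acting through STAT3 favours the Th17 fate, and IL2 acting through STAT5 favours Foxp3.

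The promoter sequences of 6 genes whose levels are given below are shown here, 3 for genes that were high in SPR and hold a half-site of nuclear receptors, 2 for the neighbouring metallothionein genes that were high together in SPR, and 1 for an interferon-inducible gene that was high in SPF. Each is a RefSeq window of 300 bases on GRCm38.p6, from 250 bases before to 50 bases after the start of transcription, with motif matches on either strand in capitals. In the windows of Il17a (chr1:20730655-20730954, plus strand), Il17f (chr1:20784221-20784520, minus strand) and Serpinf1 (chr11:75422574-75422873, minus strand) the capitals mark AGGTCA, the core half-site that many nuclear receptors bind, or its complement TGACCT. The match begins 120 bases upstream of the start in Il17a, 58 bases upstream in Il17f, and 209 and 2 bases upstream in Serpinf1. In Mt1 (chr8:94178839-94179138, plus strand) and Mt2 (chr8:94172368-94172667, plus strand) they mark TGCNCNC, a loose form of the metal response element, with 3 matches in Mt1 and 6 in Mt2. In Ifitm3 (chr7:141010695-141010994, minus strand) they mark the interferon response element, GAAA followed by 2 free bases and GAAA, which occurs 2 times just after the start.
Il17a: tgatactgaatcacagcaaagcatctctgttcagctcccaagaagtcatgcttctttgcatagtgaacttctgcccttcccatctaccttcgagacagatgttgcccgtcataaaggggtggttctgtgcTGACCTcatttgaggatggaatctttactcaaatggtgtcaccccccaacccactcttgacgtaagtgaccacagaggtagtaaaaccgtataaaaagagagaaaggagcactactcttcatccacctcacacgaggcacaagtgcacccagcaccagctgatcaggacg
Il17f: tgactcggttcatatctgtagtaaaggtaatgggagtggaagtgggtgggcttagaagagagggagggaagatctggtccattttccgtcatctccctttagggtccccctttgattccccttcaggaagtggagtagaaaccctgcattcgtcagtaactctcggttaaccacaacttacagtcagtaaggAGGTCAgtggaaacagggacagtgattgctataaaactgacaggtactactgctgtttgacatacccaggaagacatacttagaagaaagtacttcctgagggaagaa
Serpinf1: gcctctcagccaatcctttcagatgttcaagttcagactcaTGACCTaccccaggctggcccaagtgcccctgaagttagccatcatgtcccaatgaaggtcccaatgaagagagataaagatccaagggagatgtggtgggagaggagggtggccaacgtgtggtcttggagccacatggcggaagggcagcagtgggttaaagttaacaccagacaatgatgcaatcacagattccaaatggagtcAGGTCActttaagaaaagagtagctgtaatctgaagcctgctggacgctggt
Mt1: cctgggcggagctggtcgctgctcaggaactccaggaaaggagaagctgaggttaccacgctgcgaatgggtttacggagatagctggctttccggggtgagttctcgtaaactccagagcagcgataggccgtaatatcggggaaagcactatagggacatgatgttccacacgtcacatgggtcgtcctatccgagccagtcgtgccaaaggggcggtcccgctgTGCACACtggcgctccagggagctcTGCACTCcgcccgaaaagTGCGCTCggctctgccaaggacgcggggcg
Mt2: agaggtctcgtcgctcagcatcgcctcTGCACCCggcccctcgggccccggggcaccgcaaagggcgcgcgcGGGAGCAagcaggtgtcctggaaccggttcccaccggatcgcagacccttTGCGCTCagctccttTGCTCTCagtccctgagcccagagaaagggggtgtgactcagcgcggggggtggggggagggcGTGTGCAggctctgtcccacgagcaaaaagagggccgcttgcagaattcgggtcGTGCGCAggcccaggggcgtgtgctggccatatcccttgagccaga
Ifitm3: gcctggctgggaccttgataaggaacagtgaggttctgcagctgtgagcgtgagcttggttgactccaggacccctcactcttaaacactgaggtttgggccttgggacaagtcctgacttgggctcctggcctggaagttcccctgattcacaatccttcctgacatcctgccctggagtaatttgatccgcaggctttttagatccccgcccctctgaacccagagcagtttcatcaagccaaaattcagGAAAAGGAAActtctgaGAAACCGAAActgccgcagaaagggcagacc

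A match of these letters is common among promoters. AGGTCA stood in 14.9% of the 683 windows of genes called higher in SPR, in 16.4% of the 578 windows of genes called lower, in 12.3% of the 8960 windows of all genes tested and in 16.3% of all 32851 RefSeq windows. TGCNCNC stood in 62.1% of windows of genes called higher, 62.3% of those called lower and 59.9% of those of all genes tested. The interferon response element was found in 2.05% of windows of genes called higher, 5.19% of those called lower and 3.16% of those of all genes tested. For the STAT motif TTCNNNGAA the shares were 7.76%, 7.27% and 6.73% in the same order, for the E-box CACGTG 11.4%, 7.44% and 10.6%, and for the AP-1 motif TGACTCA 4.69%, 3.46% and 3.34%. Both strands were searched, matches of different motifs may overlap, and a gene with several RefSeq starts has several windows. TGCNCNC and the interferon response element were added after values had been seen, and the shares are descriptions without a test.

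MARS-seq, which reads polyadenylated transcripts at their 3′ ends, measured the RNA. The SPR libraries held 2323243 to 3759662 counts (median 2865978) and the SPF libraries 2149540 to 2204236 (median 2151895). Levels are given as CPM, in which every library sums to the same total, in the order of replicates 1, 2 and 3, where 1 count equals 0.266 to 0.465 CPM. Genes with 3 counts over a group stand at 0.335 CPM in SPR and 0.461 CPM in SPF, and these levels stand in for a group that has no count when a fold is given. Across the tested genes, Spearman's correlation between libraries was 0.939 to 0.965 within SPR, 0.903 to 0.943 within SPF and 0.795 to 0.907 between the groups, over genes that are not independent replicates. The first principal component took up 62.9% of the variance, and on it SPR libraries lay at -57.0 to -33.6 and SPF libraries at 22.3 to 54.7. The next component, with 16.1%, spread the SPF libraries, with replicate 1 at 33.9 and replicate 3 at -38.4.

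Of 24062 named genes, 9073 exceeded 10 CPM in at least 1 of the 6 libraries and were tested with edgeR's quasi-likelihood test, where a call means a p under 0.05 after Benjamini-Hochberg adjustment. This gave 1275 called genes (14.1%), of which 693 were higher (7.64%) and 582 lower (6.41%) in SPR. A difference of more than 2-fold was seen in 893 of them (9.84% of all tested), 518 higher and 375 lower, and more than 4-fold in 255 higher and 124 lower. The called genes that were higher had a median log2 fold change of 1.59, those that were lower of -1.21, and all genes tested of -0.000458. In 1271 of the called genes the CPM of both groups did not overlap, as was so for 37.4% of all genes tested. At an unadjusted p under 0.05 edgeR listed 2822 genes (31.1%), and with 3 libraries against 3 an exact permutation test of 1 gene cannot go below 0.1. Genes that a group barely held made up part of the calls: 49 genes called higher had 3 or fewer counts over the SPF libraries, 5 of them none, and 10 called lower had 3 or fewer over the SPR libraries, 2 of them none.

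**Figure D1:**
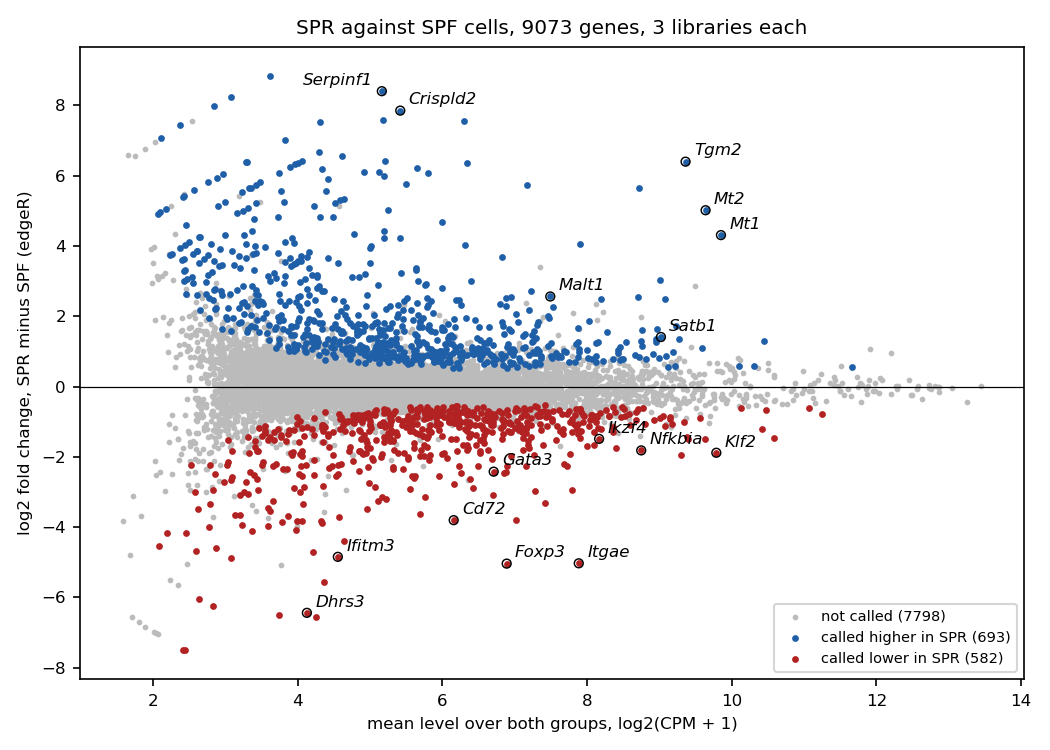
Each point is 1 of the 9073 genes tested. The x axis is log2(mean CPM + 1), with the mean taken over both groups. The y axis is the log2 fold change of SPR minus SPF fitted by edgeR. The 693 genes called higher in SPR are in blue, the 582 called lower in red and the rest in grey. Tgm2, Mt1 and Mt2 lie far above 0 at high levels, Foxp3 and Itgae lie far below it, and the arcs at the far left are genes with few or no counts in a group, whose fitted fold is no bound.

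The share of genes called varied with level. It was 13.8% of the 1116 genes under 10 CPM on average, 11.7% from 10 to 30 CPM, 14.4% from 30 to 100 CPM, 17.4% from 100 to 300 CPM, 19.2% from 300 to 1000 CPM and 8.7% of the 115 genes above. The median size of a called log2 fold change was 3.31 under 10 CPM and 1.03 from 100 to 300 CPM. Among genes that averaged 20 CPM or more, the median coefficient of variation among libraries was 13.9% in SPR and 17.5% in SPF.

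The number of calls depended on single libraries. With SPR replicates 1, 2 and 3 left out in turn it was 637, 564 and 650, and with SPF replicates 1, 2 and 3 left out in turn it was 954, 509 and 1859. In all 6 of these fits 423 of the 1275 calls were kept, 262 higher and 161 lower in SPR. SPR replicate 2 had the highest SPR level in 466 of the 693 genes called higher, against 86 for replicate 1 and 141 for replicate 3. Where a named gene below lost its call in any alternative fit with a library left out, the adjusted p from edgeR without that library follows its value.

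The sorting reporter gives a check of the labels. Foxp3 (chromosome X, 7573644 to 7595245), whose reporter marked SPF cells in the sort, stood at 7.33, 7.32 and 6.38 CPM in SPR libraries, against 232, 244 and 209 CPM in SPF libraries, a fitted log2 fold change of -5.04. The sort used its reporter, so no test is given for it. All 6 libraries thus matched their labels on this gene, and a low level remained in SPR. Foxp3 is overlapped by Flicr on its own strand and by Ppp1r3f, Gm36995 and Ccdc22 on the other, and no source used here gives the strand setting of the counting. The pan T cell genes summed to 9996, 8434 and 10090 CPM in SPR and to 12810, 13430 and 11640 CPM in SPF, with 2 of the 12 genes called lower (1 or none without SPR replicate 1, 2 or 3, SPF replicate 1 or SPF replicate 2).

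Effector genes of Th17 cells were the group with the largest share of calls. Of the 13 measured members, 9 were higher and none lower in SPR by edgeR, with a median log2 fold change of 5.91 (5.84 with barely counted genes at their bound), against -0.000458 over all genes tested. Over all genes tested 7.64% were higher and 6.41% lower, shares that also belong beside the count of every list below. Il10, Il17a, Il1r1, Ltb4r1 and Tgfb3 stayed under 10 CPM in every SPF library and passed the filter through SPR only. So did Il17f, Il21, Il24 and Ccl20, with Il17f closest to the limit at 9.53 CPM in SPF replicate 1. The count of higher genes and the median of the list thus rest largely on the filter. At an unadjusted p under 0.05, 2 members were lower, DESeq2 likewise called 2 lower, and 1 was called lower by edgeR without SPF replicate 1 and without SPF replicate 3. Interleukin genes led the list. Il17a, the founding cytokine of the lineage (chromosome 1, 20730905 to 20734496), had 10.8, 32.7 and 9.04 CPM in SPR libraries, against 0.454, 0 and 0 CPM in SPF libraries. With 1 count over the SPF libraries, the ratio of summed counts was 103 (95% counting interval 18.1 to 4080, edgeR adjusted p = 0.0064). Il21, which sustains Th17 cells and helps B cells (chromosome 3, 37222759 to 37232636), was even among SPR libraries at 37.0, 43.5 and 40.2 CPM, against 1.36, 0 and 0.465 CPM in SPF libraries, which gives a log2 fold change of 5.91 (SE 0.49, edgeR adjusted p = 0.000728). Gm12534 overlaps Il21 on the opposite strand.

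Other secreted factors were uneven among SPR libraries. Il24, a cytokine of the IL-10 family (chromosome 1, 130882074 to 130887454), reached 33.9, 100.3 and 38.6 CPM in SPR libraries, against 0.454, 0 and 1.86 CPM in SPF libraries (log2 fold change 6.11, SE 0.76, edgeR adjusted p = 0.00288). Il10, which dampens inflammation and is made by both lineages, had 26.5, 50.4 and 37.0 CPM in SPR libraries and 3 counts over the SPF libraries, a ratio of 80.5 (95% counting interval 27.3 to 392). Ccl20, the chemokine that draws CCR6-bearing cells, had 22.7, 27.1 and 7.98 CPM in SPR libraries and 2 counts over the SPF libraries, a ratio of 57.4 (15.6 to 478). Tgfb3, a TGFβ isoform that pathogenic Th17 cells make (chromosome 12, 86056745 to 86079041, with Ttll5 on the opposite strand), was more even, at 131, 189 and 153 CPM in SPR libraries, against 1.36, 0.465 and 3.72 CPM in SPF libraries (log2 fold change 6.36, SE 0.41, edgeR adjusted p = 0.000558). SPR replicate 2 was the highest of the SPR libraries in each of Il17a, Il24, Il10 and Ccl20, and no SPR value fell into the range of SPF.

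A pair of receptors on the list was higher as well. Ltb4r1, the receptor of the chemoattractant leukotriene B4, stood at 54.4, 139.5 and 97.9 CPM in SPR libraries, against 1.36, 0.930 and 1.39 CPM in SPF libraries (log2 fold change 6.23, SE 0.49, edgeR adjusted p = 0.000728). Il1r1, the receptor of IL-1, had 6.98, 6.03 and 12.0 CPM in SPR libraries and no count in SPF, which makes SPR at least 19.1-fold higher (edgeR adjusted p = 0.0141, 0.0692 without SPR replicate 3). Ccr6 and the STAT3-activating cytokine gene Lif were not called. Ccr6 had 3.14, 4.74 and 3.19 CPM in SPR libraries, against 1.36, 14.9 and 6.51 CPM in SPF libraries, and Lif had 112, 276 and 91.2 CPM in SPR libraries, against 13.2, 20.9 and 199.8 CPM in SPF libraries. Cytokine genes Il22, Il9 and Csf2 stayed under 10 CPM in every library and were not tested.

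Transcription factors of the Th17 programme were called in 1 direction too. Of 17 measured, 9 were higher and none lower in SPR by edgeR (1 lower at an unadjusted p under 0.05, none by DESeq2), with a median log2 fold change of 2.29. The higher count includes 1 gene on which the sort rested. Fosl2, an AP-1 factor, had 47.1, 101 and 90.4 CPM in SPR libraries, against 4.99, 1.40 and 6.04 CPM in SPF libraries, which gives a log2 fold change of 4.23 (SE 0.46, edgeR adjusted p = 0.00174). Irf4, which T cells switch on after activation, had 405, 759.7 and 330.3 CPM in SPR libraries, against 71.7, 60.9 and 129 CPM in SPF libraries (2.50, SE 0.39, edgeR adjusted p = 0.00632). The aryl hydrocarbon receptor gene Ahr, a sensor of dietary and microbial ligands, had 88.3, 91.7 and 105 CPM in SPR libraries, against 13.6, 6.05 and 17.7 CPM in SPF libraries. Each of these genes separated the groups without overlap. The repressor Etv6 was higher by a log2 fold change of 2.82 (SE 0.25, edgeR adjusted p = 0.00095) and the vitamin D receptor gene Vdr by 2.39 (SE 0.46, edgeR adjusted p = 0.0137, 0.0574 without SPR replicate 3 and 0.053 without SPF replicate 2). Stat3, the factor that transmits IL6, had 438, 705 and 509 CPM in SPR libraries, against 384, 260.5 and 315 CPM in SPF libraries and was not called (edgeR adjusted p = 0.0559), and its gene is overlapped by Stat5a on the opposite strand. Batf (97.3, 109 and 94.4 CPM in SPR, against 74.4, 68.8 and 63.2 CPM in SPF) and Runx1 (208, 189 and 199.5 CPM in SPR, against 98.5, 196 and 178 CPM in SPF) were not called either.

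**Figure D2:**
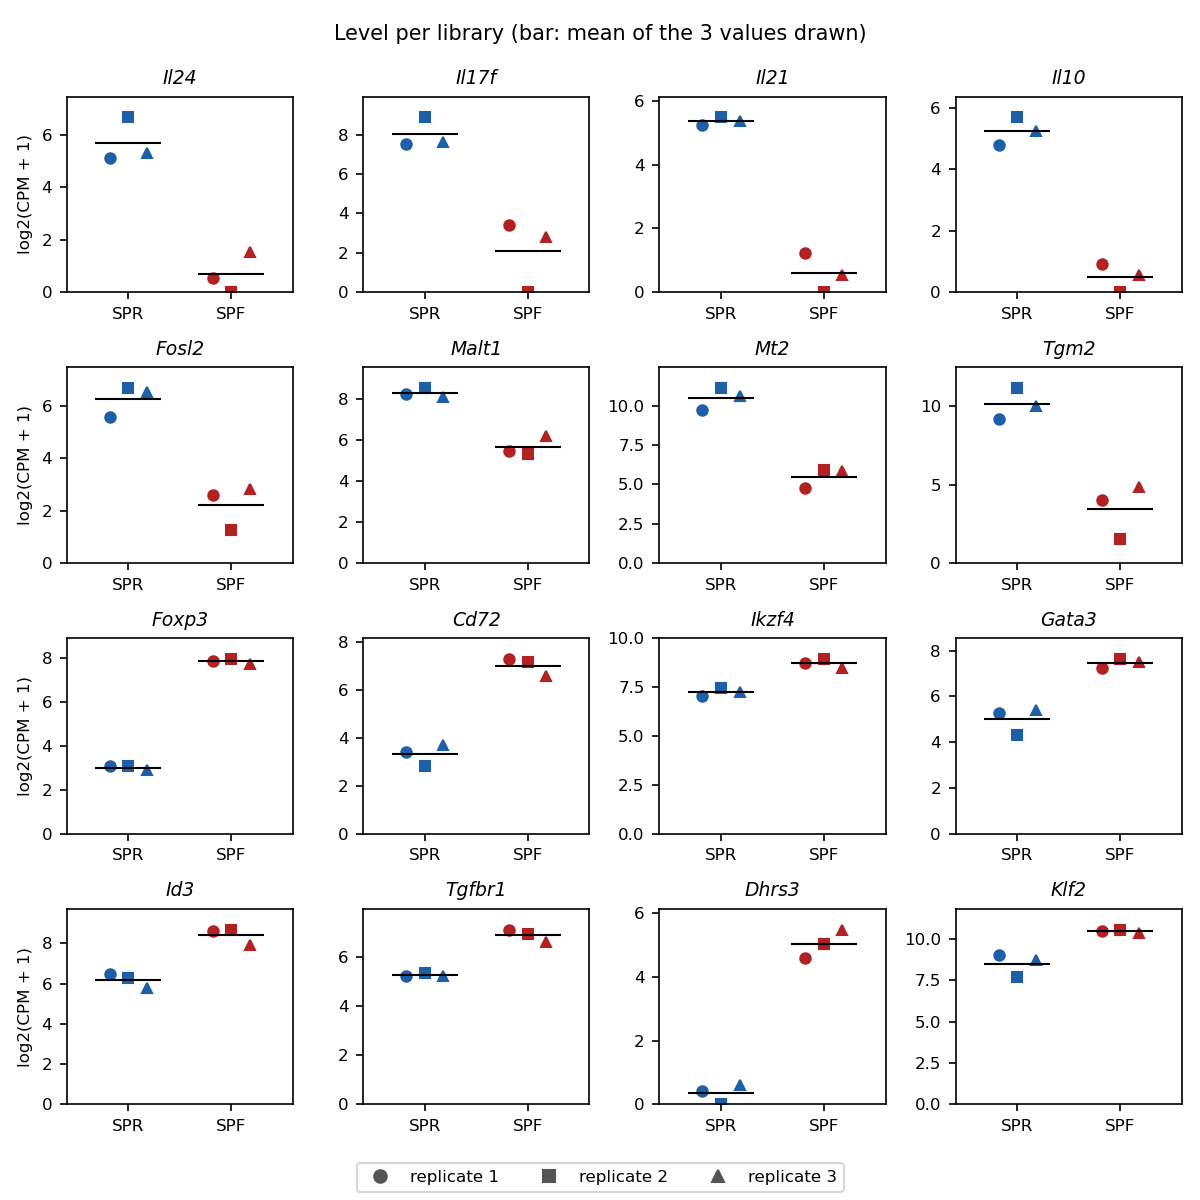
Level of 16 genes per library as log2(CPM + 1) on axes that start at 0, with SPR left in blue and SPF right in red, marker shapes for replicates 1 to 3 and a bar at the mean of the 3 values drawn. Both groups are separate in every panel, and replicates of SPR are nearly level for Il21 and Foxp3 and more spread for Il24, Il17f and Tgm2.

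Genes that respond to IL-6 through STAT3, many of which belong to the Th17 lists as well, numbered 18, with 10 higher and 1 lower in SPR (2 lower without SPF replicate 3), with a median log2 fold change of 1.19. Besides Il21, Il10 and Ahr they included Bcl3, an atypical IκB protein, at 373, 385 and 413 CPM in SPR libraries, against 195, 134 and 163 CPM in SPF libraries (log2 fold change 1.24, SE 0.18, edgeR adjusted p = 0.00492), and Socs3, the feedback inhibitor of IL6 signalling, at 553, 406 and 494 CPM, against 152, 258 and 241 CPM (1.14, SE 0.25, edgeR adjusted p = 0.0218, 0.0763 without SPR replicate 1 and 0.0682 without SPR replicate 3). The lower gene was Il6st, the shared signal chain of IL6-family receptors. Il6ra, the chain that binds IL6, was not called, with 70.8, 87.4 and 70.5 CPM in SPR libraries, against 116, 250.3 and 99.5 CPM in SPF libraries. Gm16174 and Gm16175 overlap Bcl3 on the opposite strand.

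Cytokine receptor chains differed in both directions. Of 23 measured, 7 were higher and 5 lower in SPR, with a median log2 fold change of -0.186. The higher count was 4 without SPR replicate 2 or SPF replicate 2, and the lower count was 3 without SPR replicate 1, SPR replicate 3 or SPF replicate 2. Both chains of the IL-12 receptor were higher in SPR. Il12rb2, the chain particular to IL-12 (chromosome 6, 67291318 to 67376188, with Serbp1 on the opposite strand), had 39.8, 64.6 and 31.1 CPM in SPR libraries, against 2.72, 0 and 0.465 CPM in SPF libraries (log2 fold change 5.31, SE 0.66, edgeR adjusted p = 0.00288). Il12rb1, the chain shared with the IL-23 receptor, had 28.3, 68.0 and 53.2 CPM in SPR libraries, against 9.53, 4.65 and 2.79 CPM in SPF libraries (3.11, SE 0.47, edgeR adjusted p = 0.00585). Il23r itself had no count in any of the 6 libraries. The study measured its RNA by quantitative PCR in SPR cells that were cultured further after the sort. Whether the counts used here miss its transcript was not tested. Il7r, which transmits survival signals of IL-7, was the most uneven of these among SPR libraries, at 118, 58.1 and 191 CPM, against 27.2, 20 and 19.1 CPM in SPF libraries (2.46, SE 0.42, edgeR adjusted p = 0.00902).

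Chains of the IL-2 and IL-10 receptors were lower or not called. Il10rb stood at 70.8, 59.4 and 64.1 CPM in SPR libraries, against 159, 129 and 125 CPM in SPF libraries (log2 fold change -1.10, SE 0.16, edgeR adjusted p = 0.00514). Il2rb, the chain that recruits STAT5 in response to IL2, stood at 310.2, 486 and 355 CPM in SPR libraries, against 657, 669 and 706 CPM in SPF libraries (-0.84, SE 0.20, edgeR adjusted p = 0.0281, 0.0977 without SPR replicate 1, 0.0919 without SPR replicate 3 and 0.0895 without SPF replicate 2). Il2ra, the high-affinity chain CD25, overlapped between the groups at 178, 304 and 194 CPM in SPR libraries, against 86.7, 102 and 239 CPM in SPF libraries, and was not called (edgeR adjusted p = 0.303). The shared chain Il2rg was not called (0.229).

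Among JAK, STAT and SOCS genes 4 of 20 were higher and 1 lower (2 without SPF replicate 3), with a median log2 fold change of -0.0211. The kinase gene Jak2 had 185, 211 and 166 CPM in SPR libraries, against 106, 78.2 and 78.1 CPM in SPF libraries (log2 fold change 1.08, SE 0.18, edgeR adjusted p = 0.00813), and Jak3 had 140.3, 179.5 and 167 CPM, against 86.7, 74.4 and 81.3 CPM (0.99, SE 0.16, edgeR adjusted p = 0.00736). Pim2, a survival kinase induced by cytokines, had 240.4, 196 and 186 CPM in SPR libraries, against 64.4, 52.1 and 30.7 CPM in SPF libraries (2.06, SE 0.27, edgeR adjusted p = 0.00339). Stat5a was the lower gene, at 89.7, 77.5 and 90.2 CPM in SPR libraries, against 183, 223 and 184 CPM in SPF libraries (-1.22, SE 0.17, edgeR adjusted p = 0.00469). Its neighbour Stat3 lies on the opposite strand, where reads of both genes may be mixed if strand was not used. Stat5b was not called, at 302, 328 and 340.2 CPM in SPR libraries, against 437, 439.6 and 357 CPM in SPF libraries.

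Surface and suppressor genes of Treg cells split. Of 24 measured, 6 were lower and 4 higher in SPR, with a median log2 fold change of 0.222, and the sorting reporter Foxp3 is 1 of the lower genes. The higher count was 2 without SPR replicate 1 or SPR replicate 2, 1 without SPR replicate 3 or SPF replicate 2 and 7 without SPF replicate 3, and the lower count was 3 without SPR replicate 3. Izumo1r, which encodes folate receptor 4, had 362, 495 and 322 CPM in SPR libraries, against 626, 736 and 861 CPM in SPF libraries (log2 fold change -0.94, SE 0.21, edgeR adjusted p = 0.0248, 0.0951 without SPR replicate 1, 0.0866 without SPR replicate 3 and 0.0827 without SPF replicate 2). The surface receptor gene Cd72, known from B cells as well (Tesk1 overlaps it on the opposite strand), had 9.77, 6.03 and 12.0 CPM in SPR libraries, against 157, 143 and 94.3 CPM in SPF libraries (-3.81, SE 0.30, edgeR adjusted p = 0.000728). Its lowest SPF library lay far above the highest SPR library. Ecm1, a secreted matrix protein, went the other way, at 584, 1032 and 1132 CPM in SPR libraries, against 51.3, 101 and 179.8 CPM in SPF libraries (3.03, SE 0.47, edgeR adjusted p = 0.00613).

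Some receptors often used as Treg markers were higher in SPR or not called. Ctla4, the inhibitory receptor for CD80 and CD86, had 389, 436 and 418 CPM in SPR libraries, against 295, 219 and 203 CPM in SPF libraries (log2 fold change 0.78, SE 0.18, edgeR adjusted p = 0.0286, 0.0711, 0.0878 and 0.0844 without SPR replicates 1, 2 and 3 and 0.103 without SPF replicate 2). Tnfrsf18, encoding GITR, had 609, 904 and 634 CPM in SPR libraries, against 334, 409 and 615 CPM in SPF libraries, and Tnfrsf4, encoding OX40, had 493, 680.1 and 546 CPM, against 206, 407 and 583 CPM. Neither of these receptor genes was called, with adjusted p = 0.141 for Tnfrsf18 and 0.36 for Tnfrsf4 from edgeR. Lrrc32, which anchors latent TGFβ on Treg cells, was uneven in SPF, at 81.7, 132 and 106 CPM in SPR libraries, against 54.9, 193 and 369.9 CPM in SPF libraries, and was not called.

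Among 20 transcription factors associated with Treg cells, 6 were lower and 2 higher in SPR, with a median log2 fold change of -0.28. The higher count was 1 without SPR replicate 1, 2 or 3 and none without SPF replicate 2. Gata3 (chromosome 2, 9857078 to 9890034) had 37.7, 18.9 and 41.2 CPM in SPR libraries, against 149, 198 and 178 CPM in SPF libraries (log2 fold change -2.42, SE 0.29, edgeR adjusted p = 0.00281). Klf2, which keeps T cells recirculating, had 526, 202 and 411 CPM in SPR libraries, against 1391, 1489 and 1281 CPM in SPF libraries (-1.89, SE 0.32, edgeR adjusted p = 0.00912). Foxp1 had 214, 188 and 214 CPM in SPR libraries, against 553, 378 and 417 CPM in SPF libraries (-1.14, SE 0.18, edgeR adjusted p = 0.0072). All 6 libraries fell on their group's side for these 3 genes, with SPR replicate 2 lowest for each. Satb1, a chromatin organizer, was higher in SPR at 701, 690 and 876 CPM, against 401, 224 and 224 CPM in SPF libraries (1.41, SE 0.26, edgeR adjusted p = 0.0117, 0.0536 without SPF replicate 2). Id2 was the other higher gene, at 213, 209 and 312 CPM in SPR libraries, against 37.2, 50.7 and 126 CPM in SPF libraries (1.76, SE 0.43, edgeR adjusted p = 0.0328, 0.0693, 0.0761 and 0.0937 without SPR replicates 1, 2 and 3, 0.0559 without SPF replicate 1 and 0.121 without SPF replicate 2).

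Ikzf2, which encodes Helios, a factor of thymus-derived Treg cells, was low in both groups and uneven in SPF, at 1.05, 0.430 and 2.93 CPM in SPR libraries, against 51.3, 12.6 and 20.4 CPM in SPF libraries (log2 fold change -4.09, SE 0.70, edgeR adjusted p = 0.00932). The lowest SPF value exceeded the highest SPR value. Gm29112 and Gm28112 overlap it on the same strand and Gm29114 on the other.

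Of 22 measured genes of the TGFβ response, 8 were lower and 4 higher in SPR, with a median log2 fold change of -0.761. The higher count was 2 without SPR replicate 1 or SPF replicate 1 and 1 without SPR replicate 2, SPR replicate 3 or SPF replicate 2, and the lower count was 5 without SPR replicate 2 or SPR replicate 3. Brakes of the pathway were among the lower genes. Skil, a corepressor of SMAD proteins, had 62.8, 46.5 and 55.3 CPM in SPR libraries, against 108, 98.2 and 120.4 CPM in SPF libraries (log2 fold change -1.0, SE 0.17, edgeR adjusted p = 0.00855). Ldlrad4, which keeps SMAD proteins from the receptor, had 128, 64.1 and 103 CPM in SPR libraries, against 233, 356 and 254 CPM in SPF libraries (-1.53, SE 0.29, edgeR adjusted p = 0.0133, 0.0517 without SPF replicate 2). Rgs16, which shuts off G protein signals, had 3.84, 0.861 and 2.66 CPM in SPR libraries, against 25.9, 68.9 and 11.6 CPM in SPF libraries (-3.82, SE 0.74, edgeR adjusted p = 0.0145, 0.0629 without SPR replicate 2 and 0.0574 without SPR replicate 3). All SPF libraries were above all SPR libraries for each of these 3 genes. Smad7, the inhibitory SMAD, had 206, 113 and 174 CPM in SPR libraries, against 349.8, 310.3 and 246 CPM in SPF libraries and just missed the threshold (-0.89, SE 0.25, edgeR adjusted p = 0.0501). Smad3 was not called, at 61.1, 88.2 and 66.8 CPM in SPR libraries, against 39.5, 48.9 and 47.9 CPM in SPF libraries.

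Ltbp3, a latent TGFβ binding protein, was against this direction. It had 3.84, 9.04 and 15.7 CPM in SPR libraries, against 0.907, 0 and 0.929 CPM in SPF libraries (log2 fold change 3.86, SE 0.90, edgeR adjusted p = 0.0281, 0.0715 without SPR replicate 2, 0.115 without SPR replicate 3, 0.0538 without SPF replicate 1 and 0.0827 without SPF replicate 2).

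Integrins had 5 lower and 2 higher members of 12 measured. The lower count was 1 without any 1 of the SPR replicates and without SPF replicate 2, and the higher count was 1 without SPF replicate 2. Itgae, the αE chain CD103 that binds E-cadherin (chromosome 11, 73090583 to 73147446, with Haspin on the opposite strand), had 20.9, 9.04 and 11.7 CPM in SPR libraries, against 1084, 237 and 50.6 CPM in SPF libraries. The SPF libraries differed widely and none came down to the SPR range (log2 fold change -5.03, SE 1.04, edgeR adjusted p = 0.0176, 0.0565, 0.0843 and 0.0711 without SPR replicates 1, 2 and 3). Itgb3, the β3 chain, had 55.1, 21.5 and 43.6 CPM in SPR libraries, against 159.7, 162 and 104 CPM in SPF libraries (-1.83, SE 0.34, edgeR adjusted p = 0.0119, 0.0517 without SPF replicate 2). Itga7, a laminin receptor chain, was higher, at 394, 357 and 470 CPM in SPR libraries, against 122, 109 and 103 CPM in SPF libraries (1.86, SE 0.18, edgeR adjusted p = 0.00122).

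E-cadherin itself, the ligand of CD103, followed Itgae. Cdh1 had 2.44, 0.861 and 0.532 CPM in SPR libraries, against 75.3, 15.8 and 10.2 CPM in SPF libraries (log2 fold change -4.71, SE 0.93, edgeR adjusted p = 0.0151, 0.0708 without SPR replicate 2 and 0.0627 without SPR replicate 3). SPF replicate 1 was the highest library for both genes.

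Genes of retinoid metabolism and response differed in 4 of 11 measured members, 3 lower and 1 higher. The lower count was 1 without SPR replicate 1, SPR replicate 2 or SPF replicate 2. Dhrs3, an enzyme that turns retinal back into retinol (chromosome 4, 144892827 to 144928209), had 3 counts over the SPR libraries, against 23.1, 31.6 and 43.2 CPM in SPF libraries, an SPF over SPR ratio of 97.2 (95% counting interval 32.8 to 475, edgeR adjusted p = 0.000728). Rarg, a retinoic acid receptor, had 6.98, 8.61 and 10.9 CPM in SPR libraries, against 19.5, 54.0 and 66.5 CPM in SPF libraries (log2 fold change -2.40, SE 0.45, edgeR adjusted p = 0.0131, 0.0544 without SPR replicate 1, 0.0598 without SPR replicate 2 and 0.0539 without SPF replicate 2). Rara, the receptor form that T cells mainly use, was not called, at 189, 180.4 and 219.7 CPM in SPR libraries, against 119.8, 151 and 193 CPM in SPF libraries. Tgm2, a transglutaminase that crosslinks proteins and is induced by retinoic acid in many cells (chromosome 2, 158116402 to 158146436), was higher in SPR at 587, 2289 and 1025 CPM, against 15.4, 1.86 and 28.4 CPM in SPF libraries (6.40, SE 0.85, edgeR adjusted p = 0.00353). Its level in SPR replicate 2 was more than 2-fold that of the other SPR libraries, the lowest SPR library still exceeded the highest SPF library, and Rprd1b and Gm20412 overlap it on the opposite strand.

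The metallothionein genes Mt1 and Mt2, whose products bind zinc and copper, were among the most abundant genes that rose. Mt1 (chromosome 8, 94179082 to 94180327) had 1057, 2524 and 1699 CPM in SPR libraries, against 44.9, 100 and 117 CPM in SPF libraries, which gives a log2 fold change of 4.31 (SE 0.46, edgeR adjusted p = 0.00159). Mt2 (chromosome 8, 94172664 to 94173568, with Gm45774 on the opposite strand) had 840.2, 2225 and 1575 CPM in SPR libraries, against 25.9, 58.6 and 56.2 CPM in SPF libraries (5.02, SE 0.47, edgeR adjusted p = 0.00107). Both genes were lowest in replicate 1 of each group and highest in SPR in replicate 2, and no library of 1 group reached the range of the other. Zinc importers moved less. Slc39a8 had 37.3, 51.6 and 39.1 CPM in SPR libraries, against 8.62, 9.77 and 18.1 CPM in SPF libraries (1.79, SE 0.31, edgeR adjusted p = 0.00912). In the whole list of 15 measured metallothionein and zinc transporter genes, 4 were higher and 1 lower, with a median log2 fold change of 0.35, and the lower call was lost without any 1 library.

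Some of the largest increases lay outside the lists. Serpinf1, which encodes the secreted serpin PEDF (chromosome 11, 75409769 to 75422701), had 48.9, 93.0 and 66.8 CPM in SPR libraries and 1 count over the SPF libraries, a ratio of 441 (95% counting interval 78.9 to 17500, edgeR adjusted p = 0.000603). Dpf1, a subunit of neuronal chromatin remodelling complexes (chromosome 7, 29303951 to 29318243, with Gm44632 on the opposite strand), had 13.3, 31.4 and 22.9 CPM in SPR libraries and no count in SPF, so that SPR was at least 47.7-fold higher (edgeR adjusted p = 0.00357). Gatm, the enzyme of the first step of creatine synthesis, had 18.5, 35.7 and 24.7 CPM in SPR libraries and 1 count over the SPF libraries (ratio 166, 29.6 to 6600). Gipr, the receptor of an incretin hormone (chromosome 7, 19156061 to 19166127), had 85.8, 195 and 185 CPM in SPR libraries, against 1.81, 0 and 0.465 CPM in SPF libraries (log2 fold change 7.56, SE 0.61, edgeR adjusted p = 0.000728). Crispld2, which encodes a secreted protein (Gm20388 overlaps it on the same strand), was even at 68.0, 96.0 and 85.7 CPM in SPR libraries and had 2 counts over the SPF libraries (ratio 269, 74.2 to 2230, edgeR adjusted p = 0.000186). Prr29 had 22.3, 41.3 and 25.3 CPM and Stac2 20.6, 23.7 and 42.3 CPM in SPR libraries, against 2 counts of each over the SPF libraries. Each of these genes was present in all SPR libraries and nearly missing from SPF. Plac8 was carried by 1 library, with 12.6, 4.30 and 123 CPM in SPR libraries and 3 counts over the SPF libraries (ratio 123, 42 to 600.0; edgeR adjusted p = 0.0351, 0.0661 without SPR replicate 3, 0.0944, 0.126 and 0.0542 without SPF replicates 1, 2 and 3).

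Some called genes had even replicates. Mgll, a lipase of monoacylglycerols, had 65.2, 63.3 and 88.0 CPM in SPR libraries, against 1.81, 1.40 and 3.25 CPM in SPF libraries (log2 fold change 5.03, SE 0.32, edgeR adjusted p = 0.000558). Adarb1, an RNA-editing adenosine deaminase, had 108, 150.2 and 105 CPM in SPR libraries, against 5.90, 1.86 and 6.04 CPM in SPF libraries (4.68, SE 0.34, edgeR adjusted p = 0.000646). Ust, a sulfotransferase of glycosaminoglycans, had 60.7, 45.6 and 53.7 CPM in SPR libraries, against 6.81, 4.65 and 5.58 CPM in SPF libraries (3.21, SE 0.23, edgeR adjusted p = 0.000646). Flot1, a scaffold protein of membrane rafts, differed less, at 287, 274 and 281 CPM in SPR libraries, against 69.9, 71.6 and 66.9 CPM in SPF libraries (1.99, SE 0.15, edgeR adjusted p = 0.000728).

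The largest decreases, after the genes given above, were of genes with modest levels in SPF. The uncharacterized gene 1810011H11Rik had 3 counts over the SPR libraries, against 17.2, 43.3 and 47.4 CPM in SPF libraries, an SPF over SPR ratio of 107 (95% counting interval 36.1 to 522). Actn2, an actin crosslinker, had 3.14, 3.01 and 1.33 CPM in SPR libraries, against 69.9, 23.7 and 13.9 CPM in SPF libraries (-3.88, SE 0.67, edgeR adjusted p = 0.00942). Camk2n1, an inhibitor of the kinase CaMKII, had 1.75, 0.861 and 2.13 CPM in SPR libraries, against 9.98, 20 and 42.3 CPM in SPF libraries (-3.85, SE 0.63, edgeR adjusted p = 0.00743). In each of these the SPF libraries differed among themselves by more than the SPR libraries did, and the groups did not overlap.

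Lcn10 shows how far 1 SPF library can carry a call. It had 2 counts over the SPR libraries, against 68.1, 4.19 and 1.39 CPM in SPF libraries (SPF over SPR ratio 111, 95% counting interval 30.4 to 928). Its adjusted p from edgeR was 0.0426 and became 0.13, 0.133 and 0.124 without SPR replicates 1, 2 and 3, 0.172 without SPF replicate 1 and 0.0572 without SPF replicate 2.

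The list of the T cell receptor complex and its signalling had 32 measured genes, of which 25 had a negative fold change, with a median log2 of -0.451. By edgeR 4 were lower and 1 higher in SPR, beside shares of 6.41% and 7.64% over all genes tested. At an unadjusted p under 0.05, 12 were lower and 1 higher, and DESeq2 called 7 lower and 1 higher. The lower count by edgeR was 1 without SPR replicate 1 and none without SPR replicate 2, SPR replicate 3 or SPF replicate 2. It was 2 without SPF replicate 1 and 11 without SPF replicate 3. A lower gene was Trbc2, of the receptor itself (log2 fold change -0.79, SE 0.19, edgeR adjusted p = 0.0309, 0.118 and 0.097 without SPR replicates 2 and 3, 0.0715 and 0.103 without SPF replicates 1 and 2). The others, Fyn, Dgkz and Ubash3b, had edgeR adjusted p = 0.0206, 0.0235 and 0.0493, and up to 0.075, 0.0939 and 0.16 with 1 library left out. The higher gene was Malt1, a protease that helps to activate NF-κB. It had 292, 362 and 267 CPM in SPR libraries, against 43.1, 39.1 and 71.6 CPM in SPF libraries (log2 fold change 2.56, SE 0.26, edgeR adjusted p = 0.00139). Cd3e and Cd4 were not called. Of 21 NF-κB genes, 5 were lower and 1, Bcl3, was higher, with a median of -0.386, and the lower count was 1 without SPR replicate 1, 2 without SPR replicate 2 or 3 and 3 without SPF replicate 1 or 2. Nfkbia, the inhibitor IκBα, had 206, 91.2 and 273 CPM in SPR libraries, against 653, 486 and 868 CPM in SPF libraries (-1.82, SE 0.40, edgeR adjusted p = 0.0218, 0.0698 without SPR replicate 1). Tnip1, another brake on NF-κB, had 134, 90.0 and 120 CPM in SPR libraries, against 310.3, 305 and 253 CPM in SPF libraries (-1.35, SE 0.20, edgeR adjusted p = 0.00545).

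**Figure D3:**
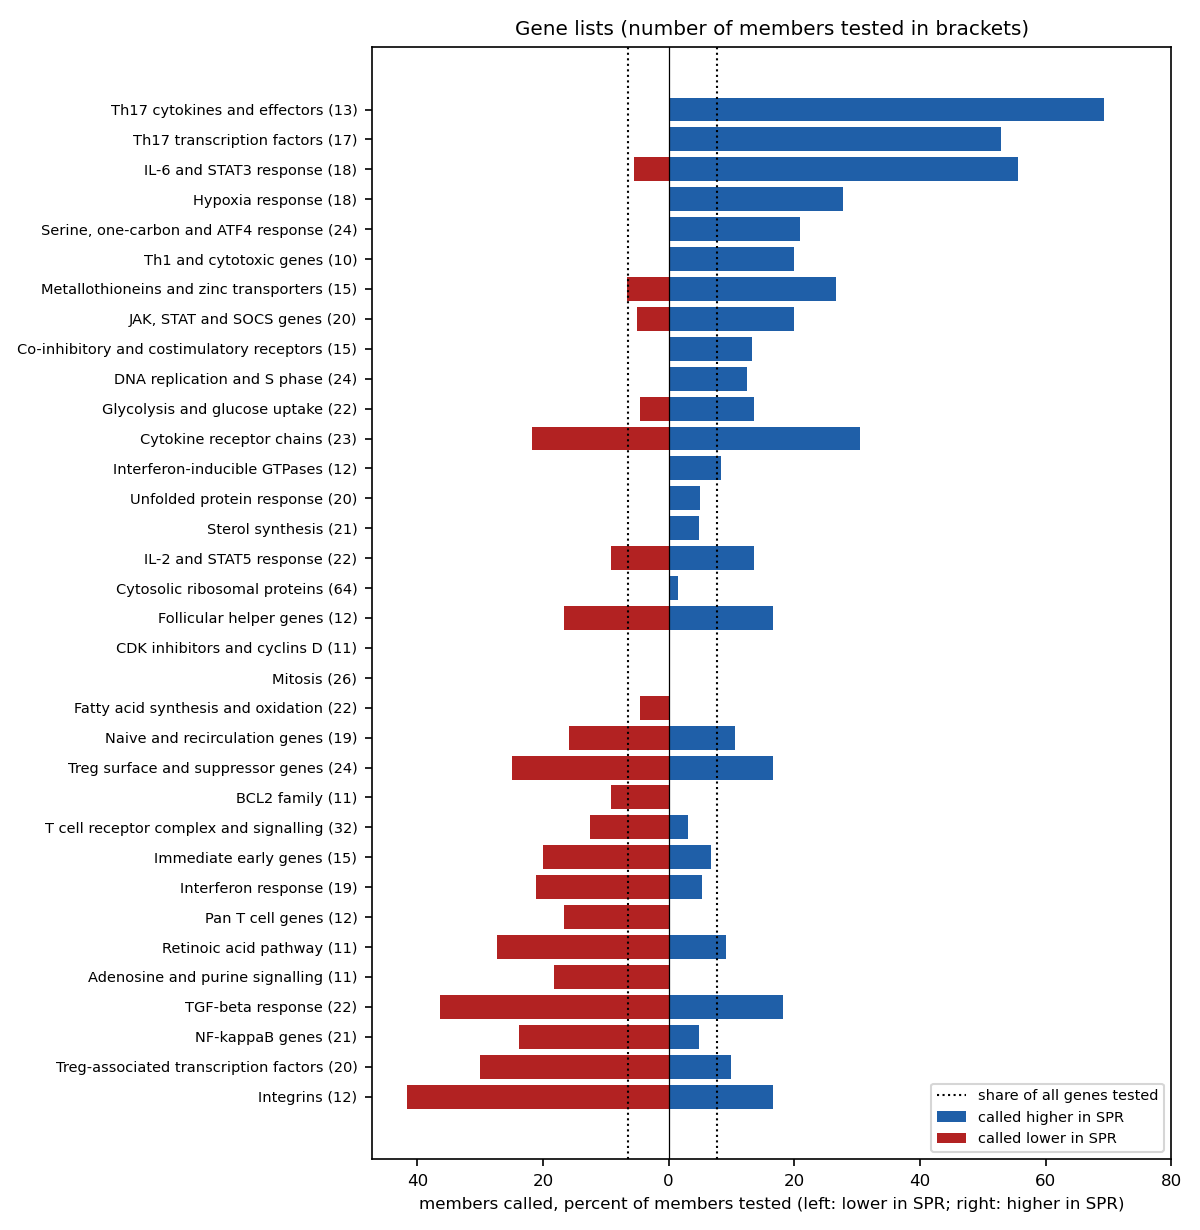
For each gene list with at least 10 members tested, the bar to the right gives the percent of members called higher in SPR and the bar to the left the percent called lower, with the number tested in brackets and dotted lines at the shares over all genes tested, 7.64% higher and 6.41% lower. The lists of Th17 genes and the IL-6 and STAT3 response reach farthest to the right, those of integrins and the TGFβ response farthest to the left.

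Genes of the hypoxia response were higher in SPR in 5 of 18 cases and lower in none by edgeR (none at an unadjusted p under 0.05 and none by DESeq2), with a median log2 fold change of 0.626. The count was 3 without any 1 of the SPR libraries, SPF replicate 1 or SPF replicate 2, and 9 without SPF replicate 3. Hif1a, the oxygen-regulated transcription factor, had 149.7, 181 and 254 CPM in SPR libraries, against 39.5, 30.2 and 48.8 CPM in SPF libraries (log2 fold change 2.29, SE 0.26, edgeR adjusted p = 0.0024). Egln3, an oxygen-sensing hydroxylase that is itself a target of HIF, had 733, 802 and 603 CPM in SPR libraries, against 101, 102 and 158 CPM in SPF libraries (2.54, SE 0.23, edgeR adjusted p = 0.00095). Adm, which encodes the peptide hormone adrenomedullin, had 8.03, 26.3 and 19.9 CPM in SPR libraries and 2 counts over the SPF libraries (ratio 57.8, 95% counting interval 15.7 to 481). In these genes all SPR libraries lay above all SPF libraries. Gm15283 overlaps Hif1a on the opposite strand and Gm49321 on the same strand.

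Glycolysis genes gave 3 higher and 1 lower of 22, although 19 of the 22 fold changes were positive and the median was 0.426. The higher count was 1 without SPF replicate 2 and 7 without SPF replicate 3, and the lower call was lost without any 1 of SPR replicates 1 to 3, SPF replicate 2 or SPF replicate 3. Slc2a3, a glucose transporter, had 644, 683 and 817 CPM in SPR libraries, against 305, 193 and 332 CPM in SPF libraries (log2 fold change 1.36, SE 0.23, edgeR adjusted p = 0.00831). Slc2a1, the other glucose transporter of T cells, had 422, 473 and 439 CPM in SPR libraries, against 167, 220.0 and 333 CPM in SPF libraries and was not called (edgeR adjusted p = 0.0555).

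Of 24 genes of serine synthesis, one-carbon metabolism and the ATF4 response, 5 were higher and none was lower by edgeR (1 lower at an unadjusted p under 0.05, by DESeq2 and without SPR replicate 2), with a median log2 fold change of 0.507. The count was 3 without SPR replicate 1, SPR replicate 2 or SPF replicate 1 and 2 without SPF replicate 2. Asns, which makes asparagine, had 24.8, 49.9 and 11.4 CPM in SPR libraries, against 2.27, 2.79 and 1.86 CPM in SPF libraries (log2 fold change 3.57, SE 0.60, edgeR adjusted p = 0.00855). Mthfd1l, a mitochondrial enzyme of the folate cycle, had 153, 219 and 157 CPM in SPR libraries, against 49.0, 35.4 and 61.3 CPM in SPF libraries (1.84, SE 0.24, edgeR adjusted p = 0.0033). Both separated the groups in all libraries.

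Cell cycle genes turned on the SPF libraries. Of 24 replication genes 3 were higher and none lower by edgeR, at a median log2 fold change of 1.03 and with 23 positive values. At an unadjusted p under 0.05, 10 were higher and none lower, and DESeq2 called 5 higher. The count was 1 without SPR replicate 1, SPR replicate 2 or SPF replicate 2, 2 without SPR replicate 3 or SPF replicate 1 and 15 without SPF replicate 3. Mcm6, a subunit of the replicative helicase, had 226, 277 and 189.6 CPM in SPR libraries, against 68.1, 59.5 and 99.5 CPM in SPF libraries (log2 fold change 1.59, SE 0.23, edgeR adjusted p = 0.00529). None of the 26 mitosis genes was called by edgeR, none had an unadjusted p under 0.05 and DESeq2 called none, although all 26 fold changes were positive with a median of 0.684. Without SPF replicate 3, 15 of the 26 were called higher in SPR. The mitosis genes summed to 2435, 2409 and 1165 CPM in SPR libraries, against 371, 852 and 2563 CPM in SPF libraries, so that SPF replicate 3 exceeded every SPR library and SPF replicate 1 was the lowest of all.

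Sterol synthesis followed the same libraries. Its 21 measured genes summed to 1352, 1670 and 1290 CPM in SPR libraries, against 651, 810.4 and 1995 CPM in SPF libraries, and 1 gene was called higher (none without any 1 of the other 5 libraries, 13 without SPF replicate 3). Sqle, the squalene epoxidase, had 44.0, 65.4 and 49.5 CPM in SPR libraries, against 7.26, 9.77 and 57.6 CPM in SPF libraries and was not called (edgeR adjusted p = 0.302). Of 22 genes of fatty acid synthesis and oxidation none was called higher and 1 lower by edgeR (6 higher and 1 lower at an unadjusted p under 0.05, 2 higher and 1 lower by DESeq2), and 8 were called higher without SPF replicate 3. The lower gene, the elongase Elovl5, had 72.6, 49.1 and 53.7 CPM in SPR libraries, against 130.2, 96.3 and 142 CPM in SPF libraries (-1.09, SE 0.21, edgeR adjusted p = 0.0137, 0.0536 and 0.0587 without SPR replicates 2 and 3). Lgals1 and Capg, which bind galactosides and actin, also had SPF replicate 3 at the SPR level, with 1088, 1271 and 1189 CPM of Lgals1 in SPR libraries, against 327, 584 and 1358 CPM in SPF libraries. Whether the state of these libraries has a part in the calls of other genes was not tested.

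Interferon-inducible genes were uneven among SPF libraries, and several were highest in SPF replicate 1. Of 19 measured genes of the interferon response, 4 were lower and 1 higher in SPR, with a median log2 fold change of -1.69, and 17 of 19 values were negative. DESeq2 called 9 lower. The lower count was 4 without SPF replicate 1 as well, 1 without any 1 of the SPR replicates and 2 without SPF replicate 2, and the higher count was 2 without SPF replicate 1 and none without any 1 of the other 5 libraries. Irf1, a transcription factor that interferon induces, had 138, 61.5 and 78.2 CPM in SPR libraries, against 683, 114 and 101 CPM in SPF libraries and was not called. The GTPase genes that defend against intracellular pathogens summed to 1325, 569 and 809 CPM in SPR libraries, against 2871, 360.1 and 459 CPM in SPF libraries. Of these 12 genes 1 was called higher (none without SPR replicate 1 or SPF replicate 2, 3 without SPF replicate 1). Their median log2 fold change was -1.18, with 8 values negative and 4 positive. Cxcr3, a chemokine receptor that interferon-γ-driven T cells carry, had 1.75, 0 and 0.266 CPM in SPR libraries, against 73.5, 0 and 0 CPM in SPF libraries. In bulk libraries such as these, more cells of a type and more RNA per cell cannot be told apart.

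The IFITM genes, which block the entry of viruses, had another order. Ifitm3, whose promoter window is shown above (chromosome 7, 141009586 to 141010770), had 1.40, 2.15 and 1.06 CPM in SPR libraries, against 5.90, 17.7 and 107 CPM in SPF libraries (log2 fold change -4.85, SE 1.11, edgeR adjusted p = 0.0261, 0.0899, 0.0928 and 0.0915 without SPR replicates 1, 2 and 3). Its neighbours on chromosome 7 had 16.4, 29.7 and 21.0 CPM in SPR libraries, against 5.44, 77.2 and 335.5 CPM in SPF libraries (Ifitm2), and 10.1, 6.46 and 1.86 CPM in SPR libraries, against 3.63, 17.2 and 83.2 CPM in SPF libraries (Ifitm1), and were not called. For all 3 genes SPF replicate 3 was the highest library, and SPF replicate 1, which had the highest Irf1, the lowest of SPF. A cluster of DNA-sensor genes on chromosome 1 was lower in SPR without overlap between the groups. Mndal had 26.2, 4.30 and 32.7 CPM in SPR libraries, against 222, 109.8 and 220.3 CPM in SPF libraries (-3.09, SE 0.57, edgeR adjusted p = 0.012), and Ifi203 had 2.44, 0.861 and 2.93 CPM in SPR libraries, against 34.5, 13.5 and 15.8 CPM in SPF libraries (-3.27, SE 0.53, edgeR adjusted p = 0.00747). Mndal and Ifi203 overlap on the same strand, so the counts may not keep them apart. Ifi208 beside them had 3.84, 1.29 and 0.798 CPM in SPR libraries, against 49.9, 18.6 and 6.97 CPM in SPF libraries (-3.68, SE 0.82, edgeR adjusted p = 0.0236, 0.0942 and 0.0806 without SPR replicates 2 and 3, 0.0622 and 0.061 without SPF replicates 1 and 2), and Ifi206 had a log2 fold change of -3.83 (adjusted p = 0.0248, 0.0761, 0.0679 and 0.0641 without SPR replicates 1, 2 and 3, 0.0698 and 0.0503 without SPF replicates 1 and 2).

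**Figure D4:**
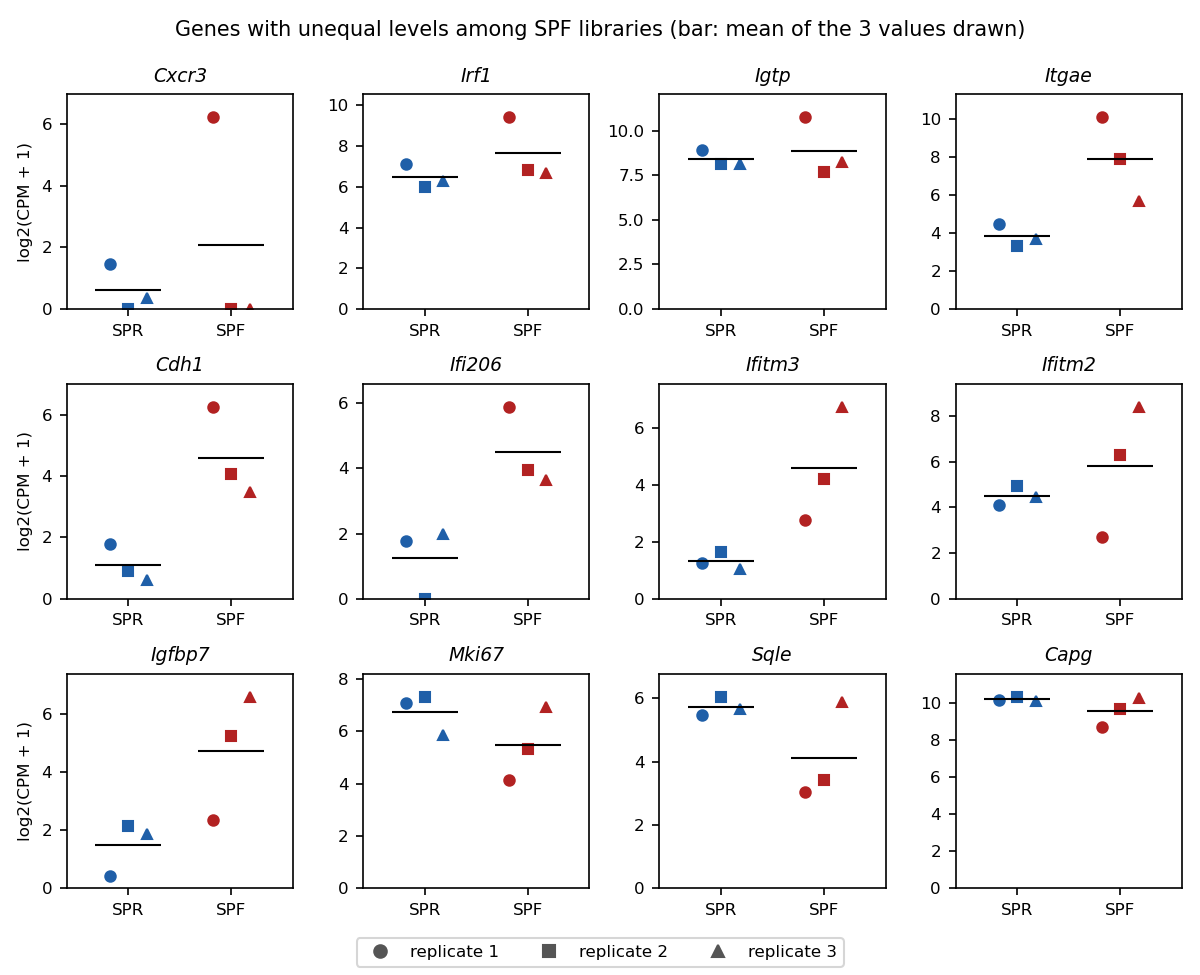
Level of 12 genes per library as log2(CPM + 1) on axes that start at 0, with SPR left in blue and SPF right in red and a bar at the mean of the 3 values drawn. The call of Igfbp7 (log2 fold change -4.41, edgeR adjusted p = 0.0325) was lost without SPR replicates 1, 2 and 3 (0.102, 0.0987 and 0.0922) and SPF replicate 2 (0.0827). SPF replicate 1 (circle) is the highest library for Cxcr3, Irf1, Igtp, Itgae, Cdh1 and Ifi206, and SPF replicate 3 (triangle) the highest SPF library for Ifitm3, Ifitm2, Igfbp7, Mki67, Sqle and Capg.

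Some genes called in the same direction were neighbours. Of 688 genes called higher that have a tested gene after them on the chromosome, 97 (14.1%) had that next gene called higher too, against 7.64% of all genes tested. For genes called lower it was 72 of 577 (12.5%), against 6.41%. There were 13 runs of 3 or more higher genes and 15 of lower genes among 8953 genes with a unique place in the annotation, and whether this exceeds chance was not tested. Overlapping neighbours such as Mndal and Ifi203, whose counts may not be kept apart, were not left out. The best-known pair opens a run on chromosome 1 (20730905 to 20939650), where Il17a and Il17f are followed by Mcm3 and by Paqr8, a membrane progestin receptor. Their SPR and SPF means were 282 ± 160.2 and 5.19 ± 4.82 CPM for Il17f, 138 ± 56.2 and 41.6 ± 23.2 CPM for Mcm3, and 15.1 ± 5.17 and 5.07 ± 0.398 CPM for Paqr8 (SD, n = 3 each). The fitted log2 fold change was 5.73 for Il17f, 1.70 for Mcm3 and 1.54 for Paqr8, and Mcm3 is in the replication list. The call of Mcm3 had edgeR adjusted p = 0.0309 (0.068 and 0.103 without SPR replicates 1 and 2, 0.0729 and 0.116 without SPF replicates 1 and 2), and that of Paqr8 0.031 (0.112 and 0.0827 without SPR replicates 2 and 3, 0.0622 and 0.0973 without SPF replicates 1 and 2).

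Beside Il21, on chromosome 3 from 37222759 to 37321453, the unclassified transcript Gm43822 had 35.6, 48.6 and 26.9 CPM in SPR libraries and 2 counts over the SPF libraries (ratio 115, 95% counting interval 31.5 to 953), and Cetn4 and Bbs12 completed the run. Bbs12, a gene of primary cilia, had 29.0, 27.6 and 23.9 CPM in SPR libraries, against 7.71, 7.91 and 5.11 CPM in SPF libraries (1.93, SE 0.27, edgeR adjusted p = 0.00428), and Cetn4 overlaps it on the opposite strand. The call of Cetn4 had edgeR adjusted p = 0.0236 (0.0771, 0.0525 and 0.0769 without SPR replicates 1, 2 and 3, 0.056 and 0.0722 without SPF replicates 1 and 2). Next to Tgm2 on chromosome 2, Lbp, the plasma protein that binds bacterial lipopolysaccharide, had 22.0, 48.6 and 22.1 CPM in SPR libraries and 2 counts over the SPF libraries (ratio 94.1, 25.8 to 782). The replicates of each of these genes were above all SPF libraries.

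Runs of lower genes included Ntn5, Car11 and Dbp on chromosome 7 (45677686 to 45710203), behind Sec1, which overlaps Ntn5 on the opposite strand. Ntn5, a netrin-like protein, averaged 6.33 ± 1.39 CPM over SPR libraries and 60.5 ± 14.2 CPM over SPF libraries, and Dbp, an output gene of the circadian clock, 73.0 ± 12.1 CPM over SPR libraries and 334 ± 108 CPM over SPF libraries (SD, n = 3 each). Their log2 fold changes were -3.25 (SE 0.28, edgeR adjusted p = 0.000774) and -2.22 (SE 0.28, edgeR adjusted p = 0.00293). Car11, a carbonic anhydrase-related gene, lay between them, with a log2 fold change of -1.71 (edgeR adjusted p = 0.0136, 0.0614 and 0.0502 without SPR replicates 2 and 3, 0.0556 without SPF replicate 2), and Sphk2 overlaps Dbp on the opposite strand. On chromosome 3 (68869586 to 69044755) the neighbours 1110032F04Rik, Ift80, Smc4 and Trim59 were lower by log2 fold changes of -2.55, -1.75, -1.75 and -1.84, Smc4 being a condensin subunit of dividing cells. Smc4 averaged 156 ± 48.2 CPM over SPR libraries and 518 ± 203 CPM over SPF libraries (SD, n = 3 each), opposite in sign to the 26 mitosis genes, and its adjusted p from edgeR was 0.0144 (0.0576 and 0.0531 without SPR replicates 1 and 3, 0.056 without SPF replicate 2). These runs were picked after their values had been seen.

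**Figure D5:**
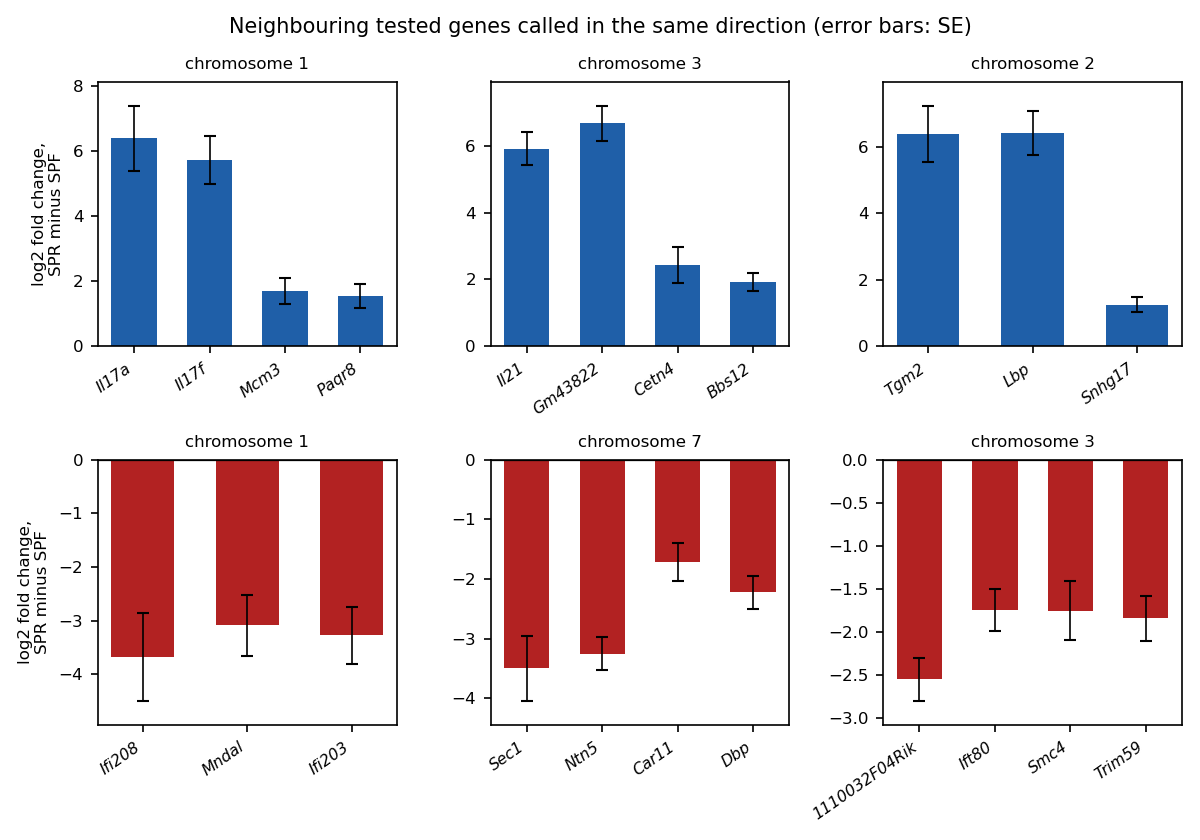
Log2 fold change of SPR minus SPF fitted by edgeR for the genes of 6 runs of neighbouring tested genes called in the same direction, in their order along the chromosome, with bars from 0 and error bars of 1 SE. The 3 runs that are higher in SPR hold Il17a and Il17f, Il21 and Tgm2, the 3 lower ones hold Ifi208, Dbp and Smc4, and fitted folds of genes with 1 to 3 counts in SPF (Il17a, Gm43822, Lbp) depend on the fit.

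The remaining lists are given by their counts, and the count of each in at least 1 direction moved by more than 1.5 times when 1 library was left out. The range over those 6 fits follows each count in brackets. Of 10 genes of Th1 and cytotoxic cells 2 were higher [1 to 3] and none lower by edgeR [0 to 3], with 3 lower at an unadjusted p under 0.05 and 2 by DESeq2. Of 5 genes of Th2 cells 2 were higher [0 to 3] and 1 lower [1], and of 12 of follicular helper cells 2 were higher [1 to 2] and 2 lower [1 to 3]. The IL-2 and STAT5 response had 3 of 22 higher [0 to 7] and 2 lower [1 to 3], with a median log2 fold change of 0.276. Of 5 targets of the aryl hydrocarbon receptor 2 were higher [1 to 2] and of 64 cytosolic ribosomal protein genes 1 [0 to 2]. Of 8 TNF family ligands 1 was higher [1] and none lower by edgeR [0 to 2], with 4 lower at an unadjusted p under 0.05, 4 lower by DESeq2 and a median log2 fold change of -0.328. Of 15 co-inhibitory and costimulatory receptors 2 were higher [0 to 3] and none lower by edgeR [0 to 2], with 3 lower at an unadjusted p under 0.05 and 2 by DESeq2. Of 8 chemokine receptors 2 were higher [1 to 3] and none lower by edgeR [0 to 1], with 1 lower at an unadjusted p under 0.05 and none by DESeq2. Of 20 genes of the unfolded protein response 1 was higher [0 to 6] and none lower by edgeR [0 to 1], with 2 lower at an unadjusted p under 0.05 and none by DESeq2. Of 19 genes of naive and recirculating cells 2 were higher [1 to 3] and 3 lower [3 to 6], and of 15 immediate early genes 1 was higher [1 to 3] and 3 lower [0 to 6]. Of 11 genes of the BCL2 family 1 was lower [0 to 1], of 11 of adenosine and purine signalling 2 [0 to 2], of 9 semaphorins, plexins and neuropilins 2 [2], with 0 to 2 higher in the fits without 1 library, and of 7 mitochondrial-encoded genes 2 [1 to 2]. None of 11 CDK inhibitors and D cyclins was called by edgeR [0 to 3 higher], with 4 higher and 2 lower at an unadjusted p under 0.05 and 2 higher by DESeq2. Median log2 fold changes of these lists lay between -0.644 for immediate early genes and 2.03 for targets of the aryl hydrocarbon receptor, and that of ribosomal protein genes was -0.0151.

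Several more of the named genes overlap other annotated genes, from which unstranded counting could not separate them. Insl3 overlaps Jak3 and Irgm2 overlaps Igtp on the same strand, and on the opposite strand Mettl7b overlaps Itga7, Fam210a overlaps Ldlrad4 and Polr2b overlaps Igfbp7. The remaining overlaps were mostly with predicted genes, pseudogenes and small RNAs.

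Markers of other cells were mostly low, with Ighm and Ctss as exceptions. Of 15 B cell markers 3 passed the filter, and 2 of them, Ighm and Cd79b, were lower in SPR (1 without SPR replicate 1, SPR replicate 3 or SPF replicate 1, none without SPR replicate 2 or SPF replicate 2). Ighm, the IgM heavy chain gene, made up most of their sum, with 391, 136 and 254 CPM in SPR libraries, against 1498, 973 and 539 CPM in SPF libraries (log2 fold change -1.96, SE 0.45, edgeR adjusted p = 0.027, 0.0784 and 0.0845 without SPR replicates 2 and 3, 0.0603 and 0.0827 without SPF replicates 1 and 2). Cd79b, a chain of the B cell receptor, had 2.79, 3.01 and 6.12 CPM in SPR libraries, against 18.6, 26.1 and 13.5 CPM in SPF libraries (-2.25, SE 0.44, edgeR adjusted p = 0.0145, 0.054 and 0.0583 without SPR replicates 1 and 2, 0.0679 without SPF replicate 2). Below the filter, the defining B cell genes Ms4a1, Cd79a and Pax5 had 0 to 3 counts in any library, and Cd22 had 1 count over SPR and 16 over SPF, Vpreb3 3 and 11, and Fcrla 2 and 7. The list summed to 407, 152 and 269 CPM in SPR libraries, against 1528, 1046 and 568 CPM in SPF libraries. Of 15 myeloid markers 3 passed the filter, of which edgeR called 1 lower, and 3 were lower at an unadjusted p under 0.05 and by DESeq2. The called gene was Itgam, with 2 counts in SPR and 41 in SPF (edgeR adjusted p = 0.029, 0.0835, 0.0629 and 0.08 without SPR replicates 1, 2 and 3, 0.0902 and 0.0695 without SPF replicates 1 and 2). Fcgr3, an Fc receptor, had 2.79, 0 and 1.60 CPM in SPR libraries, against 18.2, 42.3 and 1.39 CPM in SPF libraries (-3.74, SE 1.13, edgeR adjusted p = 0.0631). Myeloid markers below the filter included some with more counts in SPR: Cd68 had 60 over SPR and 27 over SPF, Lyz2 11 and 1, and C1qa 1 and 0. Adgre1 had 0 and 3 and Mpeg1 0 and 2. The myeloid list summed to 316, 205 and 317 CPM in SPR libraries, against 470.0, 458 and 398 CPM in SPF libraries, most of it Ctss, which T cells can express too, and Csf1r, Cd14, S100a8, S100a9, C1qb, Siglech and Flt3 had no count in any library. The markers of CD8 and NK cells summed to 59.0, 32.7 and 38.8 CPM in SPR libraries, against 71.2, 34.0 and 37.2 CPM in SPF libraries, and 1 of 4, the receptor gene Klrd1, was called higher (edgeR adjusted p = 0.0157, 0.0794 and 0.0504 without SPR replicates 1 and 3, 0.0603 without SPF replicate 2), while 1 was lower by DESeq2 and at an unadjusted p under 0.05. Of those below the filter, Cd8a had 25 counts over SPR and 6 over SPF, Klrk1 7 and 0, and Klrc1 3 and 0. Markers of erythroid cells and platelets summed to 7.33, 9.90 and 8.78 CPM in SPR libraries, against 0.907, 9.77 and 20.4 CPM in SPF libraries, and the 1 tested was not called by edgeR and was lower by DESeq2 and at an unadjusted p under 0.05. Among those not tested, Epor had 63 counts over SPR and 1 over SPF and Klf1 11 and 4. Hbb-bt had 0 and 10, and Hbb-bs and Pf4 had 1 and 0 each. The part of other cells in the results above was not tested.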

How the data were processed

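The deposited values are counts per gene, made by the authors from MARS-seq libraries, a 3′ method of RNA-seq, with cutadapt, STAR, SAMtools and HTSeq and the mm10 genome named in the submitters' processing notes. No source used here gives tool versions, the strand setting or the use of molecular identifiers. A column that names no library (1) and a row that names no gene (1) were left out. The test was edgeR 4.0.16, run in R 4.3.3 on the counts as deposited, with TMM factors (0.965 to 1.02), genes above 10 CPM in at least 1 of 6 libraries, a quasi-likelihood fit with 1 coefficient per group, Benjamini-Hochberg adjustment over all 9073 genes, and calls at 0.05. The common biological coefficient of variation was 0.261 with 4 residual degrees of freedom. SE is that of the log2 fold change. Simulated data with known changes, drawn from the gene means and spread of these data, were tested as well. Groups came from the labels.

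Intervals of ratios of summed counts are exact 95% counting intervals, cover counting error only, and count reads that need not be separate molecules. Positions are from the GENCODE vM21 annotation of GRCm38, and promoter windows were matched by symbol (6965 of the tested symbols). Named genes were the 15 largest changes per direction among called genes that averaged at least 20 CPM in the higher group without overlap, the 10 smallest p, up to 5 called members per list, and added members chosen after their values were seen. Some genes are not reported here. The comparison, its members and the gene lists were chosen with earlier results of these data known. Alternatives were RLE factors, library totals, no filter, filterByExpr, DESeq2 1.42.0, a fit over all 9 libraries, a replicate block and leaving out each library.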

Additional observations from a re-analysis of the deposited data

How the results depend on the processing

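The count of genes called, 1275 (693 higher and 582 lower in SPR, 893 beyond 2-fold), was 1283 with RLE factors, 1254 with library totals, 1315 with filterByExpr, 1579 in the fit over all 9 libraries and 1659 with DESeq2. Without the filter on low counts it was 2059, with 1169 higher, 890 lower and 1502 beyond 2-fold, among 19147 genes tested. Leaving out 1 library gave 509 to 1859 calls, 302 to 1053 higher, 207 to 806 lower and 470 to 1330 beyond 2-fold. The replicate block gave 1025 calls. Across all genes tested, same-numbered libraries did not deviate together, with correlations of deviations from the group means of 0.0987, 0.0926 and -0.125, and the numbers were not taken to pair the samples. Gapdh and Rps4x, described below, were exceptions that were low in the number 2 library of both groups. Whether the numbers mark a shared step was not tested. Of 168 named genes that were called, 168 kept the call with RLE factors, 166 with library totals, 165 without the filter, 167 with DESeq2, 163 in the fit over all 9 libraries, 153 with the block and 98 to 161 with 1 library left out, and 160 of the 162 with a value did with filterByExpr. With the block, the genes described above that lost their call were Ctla4 (adjusted p = 0.052 from edgeR), Trbc2 (0.0528), Itgam (0.0622) and Paqr8 (0.06). None of the called ones turned its direction in these 13 alternatives. Among genes that were not called, the log2 fold change with 1 library left out ranged from -1.52 to 0.46 for Igtp, from -6.84 to 3.92 for Cxcr3, from -1.68 to 0.032 for Irgm1 and from -1.55 to 0.63 for Gbp8, the highest value of all 4 genes coming without SPF replicate 1. That fit lacks the library in which these genes were high, and for the other changes the cause was not tested. With 3 libraries a group, and a single count worth 0.266 to 0.465 CPM, differences of genes near the floor rest on few counts.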

Other observations

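Gapdh, the glycolytic enzyme often used as a loading control, was low in the number 2 library of each group. It had 760.0, 50.4 and 793 CPM in SPR libraries, against 541, 26.1 and 648 CPM in SPF libraries, and the fit of the groups did not call it. Of 5714 genes that averaged 20 CPM or more in both groups, 2 were more than 4-fold below both other libraries in number 2 of each group, Gapdh and the ribosomal protein gene Rps4x, and none was so in number 1 or number 3. This pattern was looked for after Gapdh had been seen, and its cause was not tested.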
